A study of Caenorhabditis elegans with 8 samples.

Results

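The citric acid cycle oxidises acetyl-CoA in the mitochondrial matrix and passes the electrons to the respiratory chain as NADH and, at succinate dehydrogenase, as reduced flavin. The glyoxylate bypass leaves the cycle at isocitrate and skips the steps that release carbon dioxide, so that carbon from fat can be kept for making carbohydrate. Animals as a rule lack this bypass, whereas Caenorhabditis elegans has it in a bifunctional protein, ICL-1, that joins isocitrate lyase to malate synthase.

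The 10 genes described are cts-1, aco-2, idha-1, idhb-1, ogdh-1, sucl-2, sdha-1, fum-1, mdh-2 and icl-1, in the order of the steps, out of 20871 genes in the deposited table. They were picked by identifier, 1 or 2 genes for each step, and all 10 passed the filter on low counts that left 13252 genes for testing. RNA was sequenced from 8 samples of whole adults at day 3 of adulthood, each of about 200 worms. In 4 of them the worms had eaten Escherichia coli HT115 making double-stranded RNA against mtch-1, written mtch-1(RNAi), and in the other 4 the same strain with the empty vector L4440, written EV. Feeding lasted from hatching, at 20 °C on plates holding ampicillin and 1 mM IPTG, with bacteria induced by 5 mM IPTG for 3 h at 37 °C. The worm strain is not given in the sources used here, and the labels do not say whether samples of a group came from separate cultures, so p-values reflect only how far the 8 samples scatter, and that scatter can be technical.

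The targeted gene, which encodes a mitochondrial carrier homolog, checked the labels. mtch-1 stood at 50.5, 58.0, 34.3 and 46.1 CPM (read counts scaled to a common library size) in mtch-1(RNAi), against 264, 287, 275 and 291 CPM in EV (log2 fold change -2.56, SE 0.12, adjusted p = 8.62e-08). Total gene counts were 18710833 to 23608608 per sample. Unless another tool is named, adjusted p-values come from edgeR's quasi-likelihood test with Benjamini-Hochberg adjustment over the 13252 genes, a call is an adjusted p under 0.05, and errors are SDs over 4 samples. By that rule 1728 of the 13252 genes were lower and 1325 higher in mtch-1(RNAi), and with scaling by total counts alone 998 were lower and 2043 higher. Among the 4322 genes with a mean of at least 50 CPM, a level that all 10 enzyme genes exceeded, 1238 were lower and 430 higher.

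Genes for most steps of the cycle were lower after mtch-1(RNAi), and the bypass gene was higher. Of the 10 genes, 7 fell, where 13.04% of all genes tested and 28.6% of those with a mean of at least 50 CPM were called lower, icl-1 rose, where 9.998% and 9.95% were called higher, and cts-1 and ogdh-1 did not pass the test. The falls ran from -0.22 to -0.43 on the log2 scale, and the median over the 10 genes was -0.34, beside 0.01 over all genes tested and -0.07 over those with a mean of at least 50 CPM. In 8 of the 10 genes every mtch-1(RNAi) sample lay below every EV sample, as in 29.2% of the genes with a mean of at least 50 CPM. The 8 include cts-1, which did not pass the test and whose groups nearly met. That share was not counted over all genes tested. The 7 falls kept their direction and call under all 17 alternatives run. The rise of icl-1 kept its direction under all 17 but its call under only 14, and its groups overlapped. DESeq2 was among the alternatives in which the icl-1 call was lost (adjusted p = 0.0662).

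**Figure D1:**
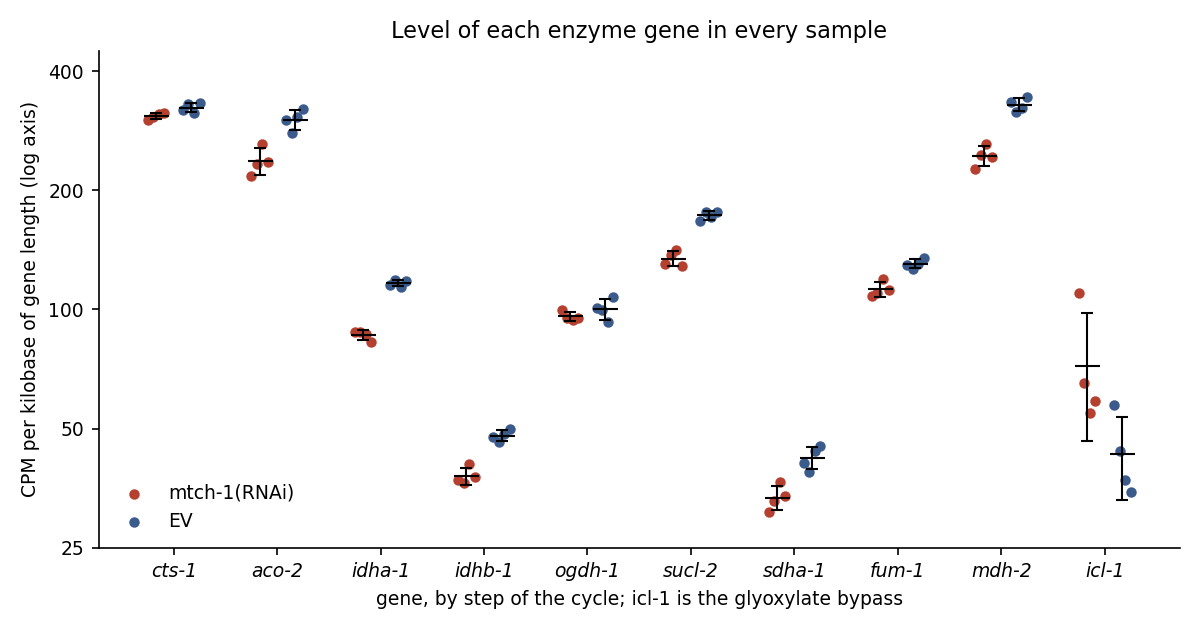
CPM per kilobase of gene length on a log axis for the 10 enzyme genes, with 4 mtch-1(RNAi) samples (red) left of 4 EV samples (blue); black bars are the mean and SD. In cts-1, ogdh-1 and icl-1 the groups meet or nearly meet, and in the other genes the red points sit below the blue ones.

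Day 3 adults carry a large germline, and many of its marker genes were lower as well. In edgeR 13.04% of all genes tested and 28.6% of those with a mean of at least 50 CPM were called lower. Of 16 germline and oocyte markers 13 fell and none rose, in edgeR, DESeq2 or limma-voom or at an unadjusted p under 0.05. Their log2 fold changes ran from -0.44 to -0.08, with a median of -0.25. Their summed level was 12209 to 13061 CPM in mtch-1(RNAi) and 14616 to 15640 CPM in EV. The summed CPM of the 9 enzyme genes other than icl-1, divided by that sum, was 0.199, 0.201, 0.208 and 0.211 in mtch-1(RNAi), against 0.200, 0.207, 0.209 and 0.208 in EV, and the groups overlapped. That sum includes cts-1 and ogdh-1, which did not pass the test. For the 7 genes that fell, the ratio was 0.130 to 0.1422 in mtch-1(RNAi) and 0.1423 to 0.151 in EV, where the groups all but met. For cts-1 and ogdh-1 together it was 0.0659 to 0.0711 in mtch-1(RNAi) and 0.0581 to 0.0625 in EV. Both parts were chosen by their calls on these same values, which largely sets the direction of each ratio, so no conclusion is drawn from the split. Whether the enzyme genes fell with the germline was not tested. In RNA from whole worms, fewer germ cells and less RNA per cell cannot be told apart. Of the somatic markers, 0 of 10 intestinal genes fell in edgeR or limma-voom and mtl-2 rose. At an unadjusted p under 0.05 in edgeR 3 were lower, and 3 fell in DESeq2. With the replicate block 5 fell, where 2264 of all 13252 genes tested were called lower. The summed level of the 10 intestinal markers was 27486 to 35612 CPM in mtch-1(RNAi) and 26785 to 34583 CPM in EV. Most of it came from vit-2 (mean 15940 CPM in mtch-1(RNAi) and 15346 CPM in EV) and vit-6 (13858 and 14382 CPM), so it says little of the other intestinal genes. The median log2 fold change of the 10 was -0.14, and values ran from -0.40 for pgp-1 to 0.25 for mtl-2. Of 8 hypodermal markers 7 did not pass and dpy-7 rose (1.10), and of 11 neuronal markers 10 did not pass and unc-104 rose (0.39), shares near the 9.998% of all genes tested that were called higher. The 4 sperm markers in the table summed to 0.525 to 1.68 CPM in mtch-1(RNAi) and 0.803 to 1.44 CPM in EV, and spe-11 had no count in 7 of the 8 samples.

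**Figure D2:**
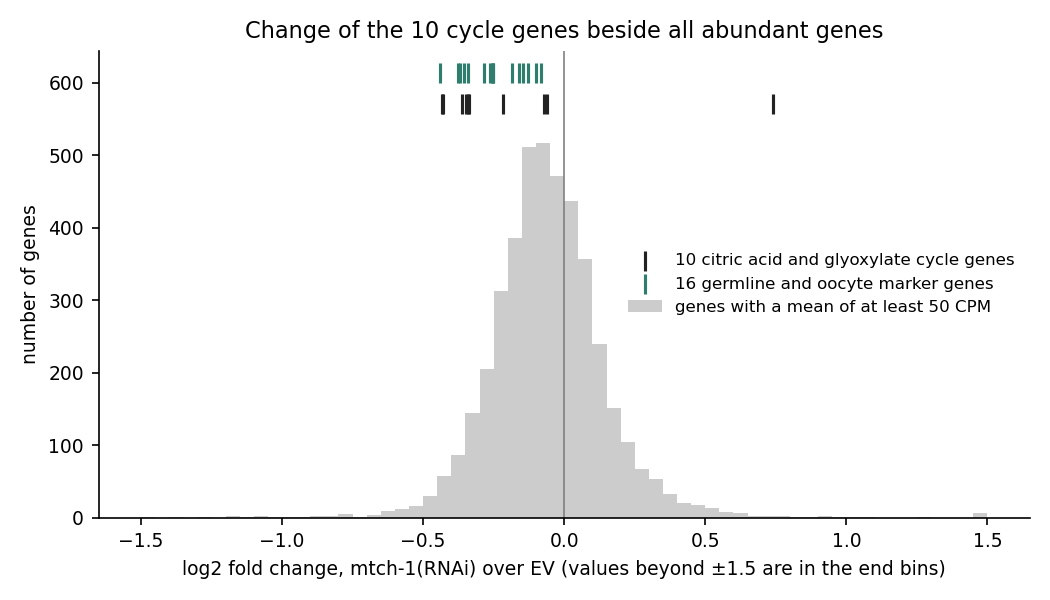
Histogram of the log2 fold change of mtch-1(RNAi) over EV for the 4322 genes with a mean of at least 50 CPM, with tick marks above it for the 10 enzyme genes (black) and 16 germline and oocyte markers (green). Apart from icl-1 at 0.74, the black ticks span -0.43 to -0.06 and the green ticks -0.44 to -0.08, beside a histogram median of -0.07; ogdh-1 lies just above that median and cts-1 just below it.

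Levels between genes are compared per kilobase of the gene length the authors list. On that scale (CPM per kilobase, quantities are levels), cts-1, mdh-2 and aco-2 were the most abundant of the 10 genes. In mtch-1(RNAi) cts-1 led at 308 ± 5.71, followed by mdh-2 at 244 ± 14.6 and aco-2 at 237 ± 18.7, and in EV mdh-2 led at 329 ± 12.3, followed by cts-1 at 323 ± 8.99 and aco-2 at 302 ± 17.5. The ranges of mdh-2 and aco-2 overlapped in mtch-1(RNAi), whereas cts-1 stood above both there, and in EV each of the 3 overlapped with its neighbour in the order. Next came sucl-2, at 134 ± 5.88 in mtch-1(RNAi) and 173 ± 4.34 in EV, and fum-1, at 112 ± 4.92 in mtch-1(RNAi) and 131 ± 3.42 in EV. idha-1 and ogdh-1 changed places, with idha-1 at 86.2 ± 2.29 in mtch-1(RNAi) and 116 ± 2.06 in EV, and ogdh-1 at 96.1 ± 2.45 in mtch-1(RNAi) and 100.3 ± 6.06 in EV, and their ranges did not overlap in either group. The 3 lowest genes in EV were idhb-1 (48.0 ± 1.59), icl-1 (43.2 ± 10.3) and sdha-1 (42.3 ± 2.80), whose neighbouring ranges overlapped. In mtch-1(RNAi) icl-1, at 72.2 ± 25.8, stood apart from idhb-1 (37.9 ± 1.85) and sdha-1 (33.5 ± 2.37). Its range reached that of idha-1 through replicate 1 alone, at 110.3, beside 65.0, 54.7 and 58.6 in replicates 2 to 4.

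Citrate synthase, encoded by cts-1 (T20G5.2, chromosome III, 10214771 to 10216635, minus strand), joins acetyl-CoA to oxaloacetate and so opens the cycle. Its level was 503, 514, 521 and 524 CPM in mtch-1(RNAi), against 535, 552, 525 and 557 CPM in EV. All mtch-1(RNAi) samples lay below the EV samples, but the highest of them and EV replicate 3 were nearly equal. The log2 fold change of -0.07 (95% interval -0.16 to 0.02) did not pass the test (adjusted p = 0.233), and that interval corresponds to a change between -10.7% and 1.21%.

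Mitochondrial aconitase, the iron-sulfur enzyme that turns citrate into isocitrate, is encoded by aco-2 (F54H12.1, chromosome III, 7973717 to 7977355, plus strand). It had the highest CPM of the 10 genes, with 593, 637, 716 and 643 CPM in mtch-1(RNAi), against 822, 763, 835 and 878 CPM in EV. Every mtch-1(RNAi) sample was below every EV sample, and replicate 3 was the closest to the EV range. The gene fell by 21.5% (log2 fold change -0.35, SE 0.06, adjusted p = 0.00196). The ratio of cts-1 to aco-2 per kilobase was 1.38, 1.32, 1.19 and 1.33 in mtch-1(RNAi), against 1.06, 1.18, 1.03 and 1.03 in EV. The groups did not overlap in this ratio, which no scaling between samples can change.

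NAD-dependent isocitrate dehydrogenase, which makes 2-oxoglutarate and the first carbon dioxide of the cycle, is built of alpha, beta and gamma subunits. The alpha subunit gene idha-1 (F43G9.1, chromosome I, 8606549 to 8608631, minus strand) stood at 141.5, 141.4, 139.6 and 134 CPM (139 ± 3.69) in mtch-1(RNAi), against 186, 191, 184 and 190.1 CPM (188 ± 3.32) in EV. The gap between the groups was many times the spread within them, and this was the largest fall of the 10 genes, tied with mdh-2 at 2 decimals (log2 fold change -0.43, SE 0.04, or 26.0%; adjusted p = 1.75e-05). The beta subunit gene idhb-1 (C37E2.1, chromosome X, 14170730 to 14174063, minus strand) had 66.7, 65.7, 73.2 and 67.8 CPM in mtch-1(RNAi) and 85.6, 83.1, 87.2 and 89.9 CPM in EV. It too fell with no overlap between groups (log2 fold change -0.34, SE 0.05, adjusted p = 0.00051). idhg-1, for a gamma subunit, fell by 0.26 on the log2 scale (SE 0.05, adjusted p = 0.00169), to 154 ± 8.11 CPM in mtch-1(RNAi), against 184 ± 5.58 CPM in EV. The related gene idhg-2 was low, at 10.8 ± 1.37 CPM in mtch-1(RNAi) and 10.9 ± 1.55 CPM in EV, and gave a log2 fold change of -0.01 with a 95% interval of -0.30 to 0.28. Per kilobase, alpha stood above beta by a ratio of 2.37, 2.40, 2.13 and 2.202 in mtch-1(RNAi) and 2.43, 2.57, 2.36 and 2.36 in EV, and those ranges overlapped.

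The 2-oxoglutarate dehydrogenase complex releases the second carbon dioxide and makes succinyl-CoA, and its genes did not move alike. ogdh-1 (T22B11.5, chromosome IV, 4696979 to 4704011, minus strand), which encodes the E1 component, had 359, 342, 339.9 and 344 CPM in mtch-1(RNAi), against 364, 360.3, 334 and 388 CPM in EV. The groups overlapped, and the log2 fold change of -0.06 (95% interval -0.17 to 0.04) did not pass the test (adjusted p = 0.396). By contrast dlst-1, for the E2 component, fell by 0.30 (SE 0.05, adjusted p = 0.00102) and dld-1, for the E3 component that pyruvate dehydrogenase also uses, fell by 0.48 on the log2 scale (SE 0.05, adjusted p = 0.000102). dld-1 stood at 205, 235.3, 230.4 and 219 CPM in mtch-1(RNAi), against 295.5, 311, 302 and 334 CPM in EV, with no overlap. ogdh-2, another gene named for the E1 component, rose: it had 155, 149, 140.2 and 162 CPM in mtch-1(RNAi), against 122, 121, 124 and 131 CPM in EV (log2 fold change 0.29, SE 0.05, adjusted p = 0.0016). The ratio of ogdh-1 to ogdh-2 per kilobase was therefore 1.97, 1.95, 2.06 and 1.80 in mtch-1(RNAi), against 2.54, 2.54, 2.29 and 2.52 in EV, again with no overlap.

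Succinyl-CoA ligase, the step that forms ATP or GTP directly, pairs an alpha subunit with a nucleotide-specific beta subunit. The alpha subunit gene sucl-2 (F23H11.3, chromosome III, 900138 to 901412, minus strand) stood at 166, 175, 180.2 and 164 CPM in mtch-1(RNAi), against 213, 224, 219 and 225 CPM in EV. It fell by 22.3% with no overlap between groups (log2 fold change -0.36, SE 0.04, adjusted p = 0.000133). The other alpha subunit gene, sucl-1, fell by 0.22 on the log2 scale (SE 0.06, adjusted p = 0.0178), and per kilobase it was the lower of the pair, at 34.8 ± 1.07 in mtch-1(RNAi) and 40.4 ± 2.80 in EV. Of the beta subunits, the ADP-dependent suca-1 fell by 0.37 (SE 0.07, adjusted p = 0.00272) and the GDP-dependent sucg-1 by 0.22 (SE 0.07, adjusted p = 0.0311) on the log2 scale. The sucg-1 groups overlapped: it had 137, 163, 155 and 145 CPM in mtch-1(RNAi) and 159, 184, 166 and 192 CPM in EV.

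Succinate dehydrogenase is both an enzyme of the cycle and complex II of the respiratory chain. Its flavoprotein gene sdha-1 (C03G5.1, chromosome X, 8542757 to 8546021, minus strand) had 70.9, 75.3, 83.9 and 77.5 CPM in mtch-1(RNAi), against 94.2, 89.4, 100.7 and 103.7 CPM in EV. The groups did not overlap, with mtch-1(RNAi) replicate 3 and EV replicate 2 nearest to each other, and the gene fell by 20.8% (log2 fold change -0.34, SE 0.06, adjusted p = 0.0021). sdha-2, the other gene for a flavoprotein, was the more abundant per kilobase, at 78.9 ± 4.71 in mtch-1(RNAi) and 104.1 ± 5.55 in EV, beside 33.5 ± 2.37 and 42.3 ± 2.80 for sdha-1. It fell too (log2 fold change -0.40, SE 0.05, adjusted p = 0.00029), and the ratio of sdha-1 to sdha-2 overlapped between groups, at 0.412 to 0.443 in mtch-1(RNAi) and 0.387 to 0.427 in EV. The remaining subunits differed among themselves. mev-1, for the cytochrome b large subunit, fell by 0.33 on the log2 scale (SE 0.06, adjusted p = 0.0027). sdhb-1, for the iron-sulfur subunit, gave -0.11 (95% interval -0.19 to -0.02, adjusted p = 0.0687) and sdhd-1, for the small membrane subunit, gave 0.05 (95% interval -0.03 to 0.13, adjusted p = 0.371), and neither passed the test.

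Fumarase and malate dehydrogenase carry fumarate to oxaloacetate and close the cycle. The fumarase gene fum-1 (H14A12.2, chromosome III, 7465605 to 7467640, plus strand) stood at 219, 223, 242 and 226 CPM in mtch-1(RNAi), against 263, 257, 264 and 273 CPM in EV. The groups did not overlap, and its fall was the smallest of the 7 (log2 fold change -0.22, SE 0.04, or 14.0%; adjusted p = 0.00348). mdh-2 (F20H11.3, chromosome III, 6606544 to 6608106, minus strand), for the mitochondrial malate dehydrogenase, had 365, 396, 422.5 and 391 CPM in mtch-1(RNAi), against 538, 509, 520.3 and 554 CPM in EV. It fell by 25.8% with a wide gap between the groups (log2 fold change -0.43, SE 0.05, adjusted p = 0.00015). The ratio of cts-1 to mdh-2 per kilobase was 1.32, 1.25, 1.19 and 1.29 in mtch-1(RNAi), against 0.957, 1.04, 0.970 and 0.966 in EV, so cts-1 stood above mdh-2 in 4 of 4 mtch-1(RNAi) samples and in 1 of 4 EV samples.

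The bypass gene icl-1 (C05E4.9, chromosome V, 724332 to 728004, minus strand) was the single gene of the 10 that rose. It stood at 370.0, 218, 184 and 197 CPM in mtch-1(RNAi), against 193, 147, 124 and 116 CPM in EV. Replicate 1 was the highest sample in each group, and the groups overlapped because EV replicate 1 lay above mtch-1(RNAi) replicate 3. The log2 fold change was 0.74 (SE 0.21, 95% interval 0.29 to 1.19, adjusted p = 0.0221), or 1.67-fold. The spread of icl-1 within groups was the widest of the 10 genes, with a coefficient of variation of 35.7% in mtch-1(RNAi) and 23.8% in EV, beside 1.86% to 7.90% for the other 9 genes in mtch-1(RNAi) and 1.77% to 6.63% in EV.

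Compared within replicate numbers, icl-1 was higher in mtch-1(RNAi) in 4 of 4 pairs. The labels state no pairing. It was taken from these same data, in which same-numbered samples deviated together from their group means (correlations 0.342, 0.205, 0.242 and 0.185). The log2 differences were 0.94, 0.57, 0.57 and 0.76 for replicates 1 to 4. With the replicate number as a block the log2 fold change was 0.71 (SE 0.06, adjusted p = 2.39e-08). Without the block the call was lost when EV replicate 3 (adjusted p = 0.0595) or EV replicate 4 (adjusted p = 0.0695) was left out and in DESeq2 (adjusted p = 0.0662). Leaving out mtch-1(RNAi) replicate 1 gave a log2 fold change of 0.46 (adjusted p = 0.0346). The authors' deposited table gives icl-1 a log2 fold change of 0.73 with an adjusted p of 0.0662. The summed level of 10 body wall muscle markers was also highest in mtch-1(RNAi) replicate 1, at 1447 CPM, beside 966 to 1177 CPM in mtch-1(RNAi) replicates 2 to 4 and 900 to 1155 CPM in EV. None of the 10 passed without the block, in edgeR, DESeq2 or limma-voom or at an unadjusted p under 0.05. With the block 7 of the 10 were higher in mtch-1(RNAi), where 1983 of all 13252 genes tested were called higher. The part of these markers in the icl-1 result was not tested.

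**Figure D3:**
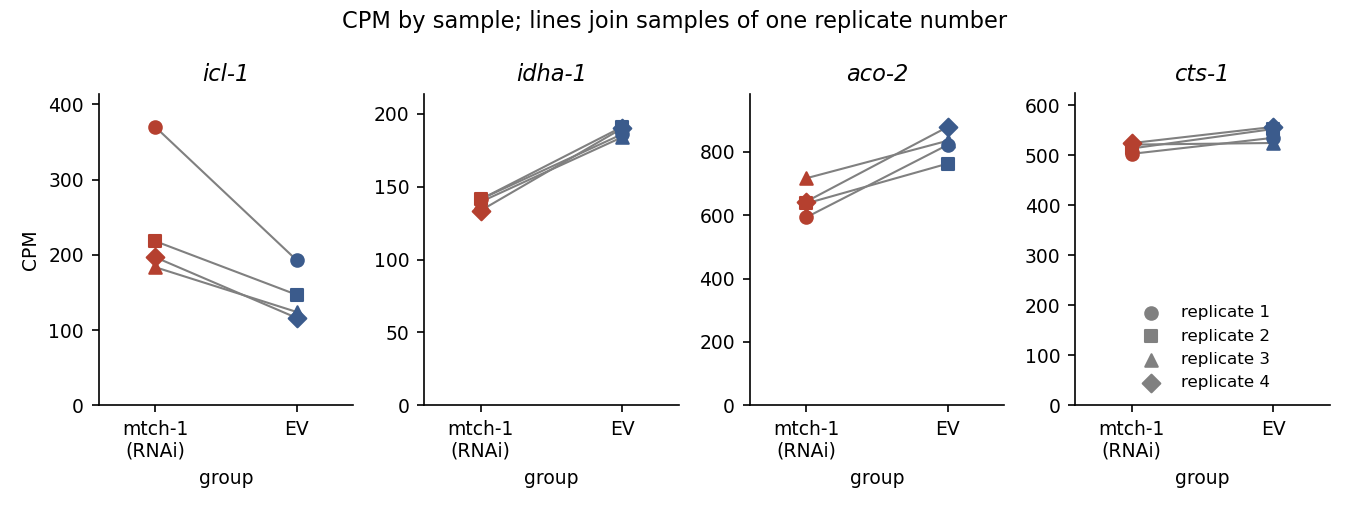
CPM of 4 of the enzyme genes in each sample, with mtch-1(RNAi) on the left, EV on the right, the axis starting at 0 and grey lines joining samples of one replicate number. The 4 icl-1 lines run down towards EV over a wide range of levels, those of idha-1 and aco-2 run up, and those of cts-1 are nearly flat.

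At isocitrate the bypass competes with isocitrate dehydrogenase for substrate. The ratio of icl-1 to idha-1 per kilobase was 1.26, 0.742, 0.632 and 0.708 in mtch-1(RNAi), against 0.498, 0.370, 0.324 and 0.294 in EV. The groups did not overlap in this ratio, nor in that of icl-1 to aco-2, which was 0.209 to 0.508 in mtch-1(RNAi) and 0.108 to 0.191 in EV. They did overlap in the ratio of icl-1 to cts-1, which was 0.368, 0.212, 0.176 and 0.187 in mtch-1(RNAi), against 0.1801, 0.133, 0.118 and 0.104 in EV, since EV replicate 1 lay above mtch-1(RNAi) replicate 3. icl-1 made up 8.18%, 4.82%, 3.89% and 4.38% of the summed level per kilobase of the 10 genes in mtch-1(RNAi), against 3.56%, 2.78%, 2.34% and 2.08% in EV. The sum itself was 1348, 1349, 1408 and 1339 CPM per kilobase in mtch-1(RNAi), against 1612, 1574, 1579 and 1664 CPM per kilobase in EV, so all mtch-1(RNAi) sums lay below all EV sums in spite of icl-1.

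Other genes of the pathway came from 3 lists, whose counts stand beside the 13.04% of all genes tested that were called lower and the 9.998% called higher (28.6% and 9.95% at a mean of at least 50 CPM). Among 12 genes for further subunits and paralogues, 8 fell, ogdh-2 rose and 3 did not pass, with a median log2 fold change of -0.24. Among 4 genes for the same reaction in another compartment or with another cofactor, 3 fell. These were idh-1, for the cytosolic NADP-dependent isocitrate dehydrogenase (-0.38, SE 0.05, adjusted p = 0.000183), mdh-1, for the cytosolic malate dehydrogenase (-0.29, SE 0.05, adjusted p = 0.000903), and aco-1, for the cytosolic aconitase (-0.28, SE 0.09, adjusted p = 0.0381), so lower levels were not limited to genes of mitochondrial enzymes. The aco-1 groups overlapped, at 76.5 to 99.2 CPM in mtch-1(RNAi) and 96.2 to 124.8 CPM in EV. idh-2, for the mitochondrial NADP-dependent enzyme, gave -0.17 (95% interval -0.34 to 0.01) and did not pass.

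Of 16 genes for enzymes that feed or drain the cycle, 15 were tested, 6 fell, none rose in edgeR, DESeq2 or limma-voom (1 was higher at an unadjusted p under 0.05 in edgeR), and the median log2 fold change was -0.08, near the -0.07 of all genes with a mean of at least 50 CPM. The gene not tested, pck-3, had 0 to 2 reads in each of the 8 samples. The 6 were the pyruvate dehydrogenase genes, with pdhb-1 at -0.33, pdha-1 at -0.22 and dlat-1 at -0.17, the malic enzyme gene men-1 (-0.37, adjusted p = 8.31e-05), the glutamate dehydrogenase gene gdh-1 (-0.22) and the aspartate aminotransferase gene got-2.2 (-0.21). The oxaloacetate-forming pyruvate carboxylase gene pyc-1 (-0.02, 95% interval -0.14 to 0.10) and the ATP citrate lyase genes acly-1 (-0.07) and acly-2 (0.00) did not pass. The phosphoenolpyruvate carboxykinase genes, which lead out towards carbohydrate, did not pass either, with pck-1 at 0.17 (95% interval -0.01 to 0.34) and pck-2 at -0.12 (95% interval -0.25 to 0.01). With the replicate block pck-2 passed as lower (adjusted p = 0.0407) and got-2.1, another aspartate aminotransferase gene, as higher (0.13, adjusted p = 0.0429; 0.125 without the block).

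**Figure D4:**
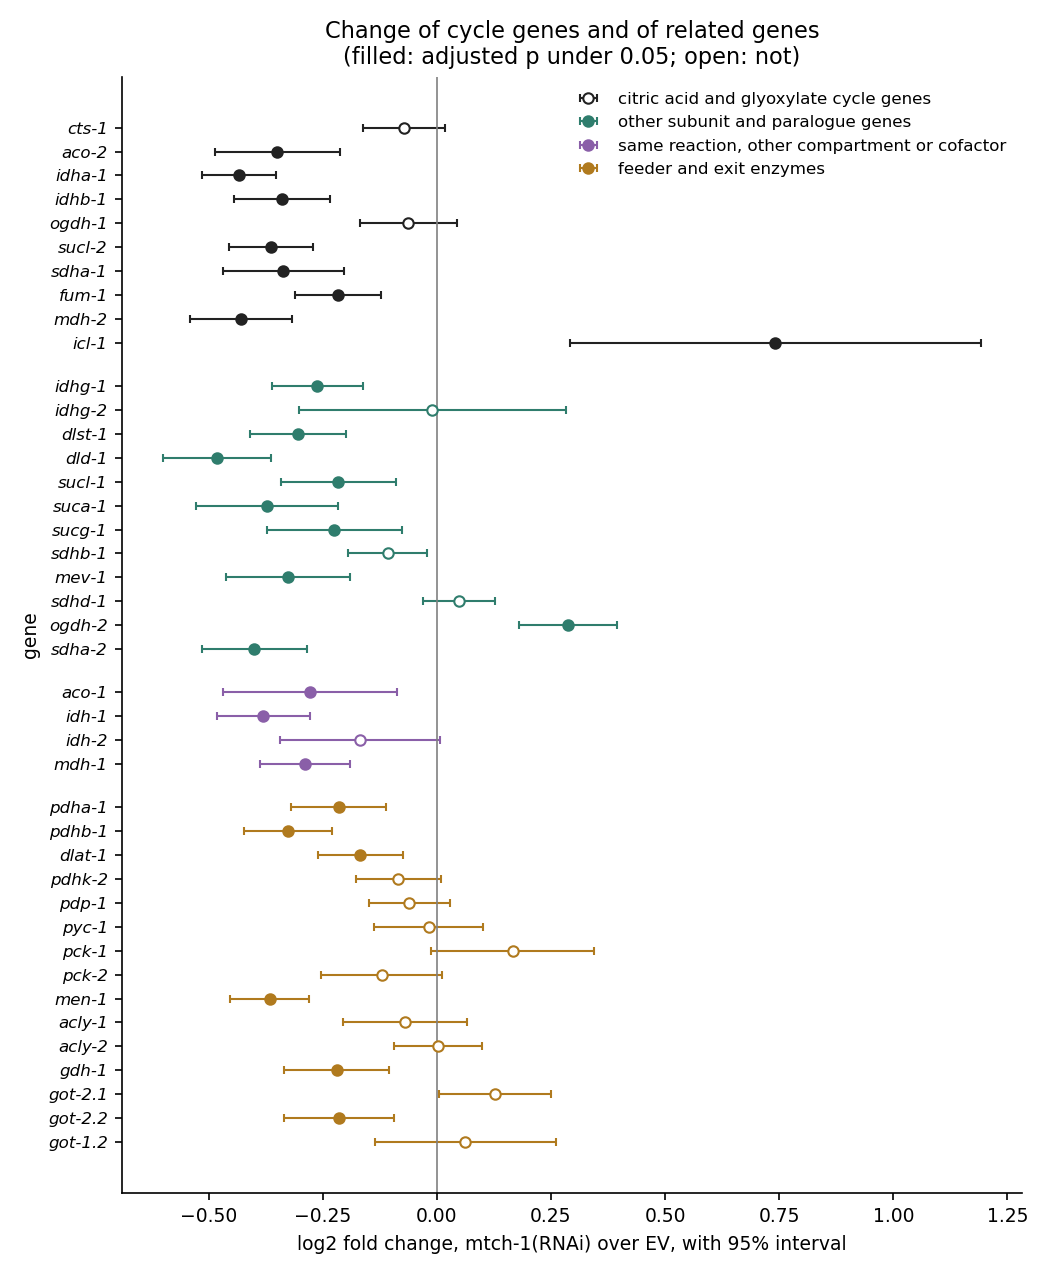
Log2 fold change of mtch-1(RNAi) over EV with its 95% interval for the 10 enzyme genes and for 31 tested genes of 3 related lists; filled points passed the test at an adjusted p under 0.05. Most filled points lie between -0.2 and -0.5, and the filled points to the right of 0 are icl-1 and ogdh-2.

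Genes with the most similar course over the 8 samples were found by the root mean square difference of log2 CPM, each gene measured from its own EV mean, among 5548 named protein-coding genes with a mean of at least 5 CPM. Nearest to icl-1 were lact-1 (0.155), kpc-1 (0.166), hmit-1.1 (0.17), tps-2 (0.175) and lact-4 (0.207). Their log2 fold changes were 0.71 for lact-1, 0.68 for kpc-1, 0.64 for hmit-1.1, 0.52 for tps-2, a trehalose 6-phosphate synthase gene, and 0.56 for lact-4. The choice of these genes by their likeness to icl-1 over the same samples fixes that they were higher in mtch-1(RNAi) and highest in its replicate 1, so no test is given. Nearest to the mean course of the other 9 genes were tbcd-1 (0.0218), rbm-22 (0.0233), ant-1.1 (0.0247), imph-1 (0.0249) and aka-1 (0.0256), of which ant-1.1 encodes a mitochondrial ADP/ATP carrier.

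Exons of cts-1, aco-2, idha-1, sucl-2 and fum-1 overlap an exon of a protein-coding gene on the opposite strand by 60, 97, 26, 21 and 67 bases. Whether counting used strand is not given in the sources used here, so reads from those stretches cannot be assigned. Reads shared between sdha-1 and sdha-2, sucl-1 and sucl-2, or ogdh-1 and ogdh-2, if any, leave their separate values uncertain.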

How the data were processed

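RNA-seq of 4 mtch-1(RNAi) and 4 EV samples was analysed from a single table. The submitters' processing notes name HISAT2 2.0.5 and featureCounts 1.5.0-p3, with WBcel235 as the build, as well as DESeq2, and give no settings. The authors deposited read counts per gene, a normalized signal (count divided by 1 size factor per sample) with group means, FPKM values, p-values (raw and adjusted) with log2 fold changes, and gene lengths in bases as another unit. Per the file headers, 0 columns of per-sample values lacked a sample.

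Counts were fitted with edgeR 4.0.16 (R 4.3.3; TMM, default expression filter, quasi-likelihood F test, no block) over the whole table. A 95% interval is the log2 fold change ± the t quantile times its SE, the latter taken as its absolute value over √F. CPM uses TMM effective library sizes. Alternatives were run with DESeq2 1.42.0 and limma 3.58.1 (voom), and the fit was checked on simulated data. Symbols and spans come from Ensembl release 115 on the same build, which matched 20543 genes. Same-numbered samples deviated together from their group means (correlations 0.342, 0.205, 0.242 and 0.185, all over 0.1), so the replicate numbers were taken to pair the samples, although the labels state no shared day. Within groups no samples were as close as sampling noise (chi-square per degree of freedom 6.71 to 15.1). Genes and lists were chosen with earlier results of these data known. Every enzyme gene is named, as are all genes of the first 2 related lists, and 5 genes per profile by smallest difference; of the feeder list any tested gene may be named. The comparison with genes of at least 50 CPM and the marker genes singled out were chosen after their values were seen. 3 sperm markers were not analysed here.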

Additional observations from a re-analysis of the deposited data

Results flagged for a closer look

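The summed level per kilobase of the 10 enzyme genes was 1408 CPM per kilobase in mtch-1(RNAi) replicate 3, beside 1339 to 1349 CPM per kilobase in the other mtch-1(RNAi) samples. Its gap to the nearest sample was 0.859 of the group's range, above Dixon's 95% limit for 4 samples. Across the 24 groups of 4 values looked at in this way, chance alone marks about 1 in 20. The sample still lay below the lowest EV sample, at 1574 CPM per kilobase, and the 7 falls also passed the test without it.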

How the results depend on the processing

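Of 17 alternatives, 1, without replicate 1 of both groups, was chosen after seeing the data. The 7 falls and mtch-1 kept their direction and call under each. With scaling by total counts alone, the values of cts-1 (0.00036) and ogdh-1 (0.012) turned positive, neither passing. The icl-1 call was lost in DESeq2 (0.73) and without EV replicate 3 or 4; leaving out 1 sample at a time gave 0.46 to 0.91, and 0 to 1 of the 10 genes called higher (0 in DESeq2). Leaving out replicate 1 of both groups gave icl-1 0.63 (adjusted p = 0.00106). The related lists had 17 lower and 1 higher genes, against 11 and 3 with total counts alone, 2 higher with the stricter filter of 5 CPM in 4 samples, and 18 lower and 2 higher with the replicate block, which changed no call among the 10 genes. Over all 13252 genes tested the block called 2264 lower and 1983 higher. The median over the 10 genes ranged from -0.38 to -0.26. The lowest count of any of the 10 genes in a sample was 1419 reads.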

Other observations

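Within mtch-1(RNAi), 6 of the 9 cycle genes were highest in replicate 3, where mtch-1 (34.3 CPM) and icl-1 (184 CPM) were lowest and the germline marker sum was highest (13061 CPM), and 5 of the 9 were lowest in replicate 1, where icl-1 was highest. Within EV, 8 of the 9 were highest in replicate 4. That sample had the lowest icl-1 level (116 CPM) and the highest germline marker sum (15640 CPM). By contrast, 5 of the 9 were lowest in EV replicate 2 and 1 of the 9 in EV replicate 1, where icl-1 was highest (193 CPM). In mtch-1(RNAi) the germline marker sum was lowest in replicate 4 (12208.5 CPM) and not in replicate 1 (12515.5 CPM). In EV that sum was lowest in replicate 2 (14616 CPM), beside 15473 CPM in replicate 1. Whether this order of samples was particular to the 9 genes was not tested. The summed CPM of the 3 related lists was also highest in mtch-1(RNAi) replicate 3 (6033 CPM) and in EV replicate 4 (6883 CPM). The share of all genes highest in these samples was not counted. With 4 samples a group, no correlation was computed.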
